A study of Mus musculus with 12 samples.

Results

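DNA replication and S-phase genes were followed in C2C12 cells, myoblasts of the mouse that keep cycling in rich serum and form myotubes once serum is reduced. The 46 genes were chosen by function and matched by symbol, and all 46 were listed at both days among 21774 genes. They comprise 12 licensing genes, 7 genes of origin firing and helicase activation, 6 of the sliding clamp and its loader, 7 of polymerases and primase, 4 of single-strand binding and Okazaki fragment joining, 4 of nucleotide supply, 4 of G1/S control and 2 of chromatin assembly. RNA was sequenced from WT cells and from cells homozygous for PGAM2-K176R, a knock-in that replaces a lysine of the muscle phosphoglycerate mutase, studied as a SUMO attachment site, with arginine. The mutant is 1 edited clone. Both genotypes were sampled undifferentiated in growth medium with fetal bovine serum (d0) and after 4 days in differentiation medium with horse serum (d4), in 3 libraries each. The labels list 3 libraries per group without saying that they came from separate cultures. The methods mention only a pair of biological replicates for each condition. A figure legend of the paper gives n = 3 per group for RNA sequencing at d0 and d4, without saying what was replicated. Which libraries are biological replicates is therefore not known, and every SD, SE and p-value given here measures only the spread between these libraries, which may be partly technical. The deposited tables assigned 16098407 to 21412560 reads per library to genes.

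Replication begins in G1, when ORC, CDC6 and CDT1 load the MCM2-7 helicase onto origins, while geminin blocks CDT1 once S phase has started. CDC7 and cyclin-dependent kinases then recruit CDC45, the GINS complex and MCM10, and polymerases, the PCNA clamp, RPA and DNA ligase copy and join the strands. E2F transcription factors activate many of these genes at the G1/S transition, and myoblasts shut the program down when they leave the cell cycle to fuse.

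Promoters of the genes chosen by function are shown first, since E2F sites are the best known shared element of this program. RefSeq promoter windows (GRCm38.p6, 250 bases before to 50 after the start) were found for 37 of the 46 genes. One of the E2F words TTTCCCGC, TTTCGCGC, TTTGCCGC and TTTGGCGC occurred on either strand in 14 of these 37 genes, against 2.6% of 27025 genes with a window. Words on opposite strands can overlap, as in Mcm5 and Mcm6, and each was counted. Of 20 words in the windows, 13 began within 100 bases before to 50 after the start. The CHR word TTTGAA, an element of genes expressed later in the cycle, occurred in 6 of the 37 genes (16.2%) and in 20.2% of all. Mcm3, Mcm7 and Cdc6 are printed because they hold the E2F word, and Rrm2, the most abundant of the 46 transcripts, because none of these words was found in its window. Capitals mark the E2F words.
Mcm3 promoter, chr1:20820263-20820562, minus strand: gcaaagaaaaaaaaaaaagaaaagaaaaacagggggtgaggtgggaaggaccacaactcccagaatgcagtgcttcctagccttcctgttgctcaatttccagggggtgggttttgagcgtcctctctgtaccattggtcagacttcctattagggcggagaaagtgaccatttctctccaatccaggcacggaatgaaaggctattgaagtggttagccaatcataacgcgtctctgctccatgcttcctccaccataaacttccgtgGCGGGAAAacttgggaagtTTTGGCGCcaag
Mcm7 promoter, chr5:138171834-138172133, minus strand: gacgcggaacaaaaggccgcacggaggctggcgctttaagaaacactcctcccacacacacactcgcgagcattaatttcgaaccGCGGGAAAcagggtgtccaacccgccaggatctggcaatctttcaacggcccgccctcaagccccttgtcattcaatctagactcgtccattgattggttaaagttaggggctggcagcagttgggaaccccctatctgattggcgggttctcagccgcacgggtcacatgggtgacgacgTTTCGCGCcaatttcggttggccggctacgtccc
Cdc6 promoter, chr11:98907901-98908200, plus strand: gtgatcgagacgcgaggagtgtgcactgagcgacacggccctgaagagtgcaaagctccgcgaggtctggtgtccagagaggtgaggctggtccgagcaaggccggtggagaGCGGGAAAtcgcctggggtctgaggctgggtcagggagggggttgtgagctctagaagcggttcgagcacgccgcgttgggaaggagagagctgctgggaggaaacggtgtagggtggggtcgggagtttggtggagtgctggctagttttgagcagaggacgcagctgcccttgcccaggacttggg
Rrm2 promoter, chr12:24708004-24708303, plus strand: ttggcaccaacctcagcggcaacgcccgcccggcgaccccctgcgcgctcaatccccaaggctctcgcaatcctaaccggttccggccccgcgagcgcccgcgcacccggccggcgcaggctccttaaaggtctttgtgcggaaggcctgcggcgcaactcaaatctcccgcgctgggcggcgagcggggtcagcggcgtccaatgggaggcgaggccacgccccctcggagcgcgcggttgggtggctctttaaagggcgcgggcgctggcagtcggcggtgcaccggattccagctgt
Words on the minus strand appear as their reverse complement, for example GCGGGAAA in Mcm3, Mcm7 and Cdc6. A second annotated start of Mcm7 had no E2F word. The printed Cdc6 and Mcm7 windows belong to starts inside the deposited gene coordinates. Those coordinates begin at 98907801 for Cdc6 and, on the minus strand, at 138172422 for Mcm7. Sequence before these outer ends was not searched for either gene. A match of letters is not a measured binding site, and the absence of a match concerns these windows alone.

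At d0 the replication genes formed a graded set. The median group mean was 10.8 FPKM (fragments per kilobase of gene length, scaled by library depth) in WT cells, compared with 15.7 FPKM in mutant cells. Rrm2, a small subunit of ribonucleotide reductase, was the most abundant in all 4 groups, and Pcna, the replication clamp, was next in all 4. Orc1 was the lowest at d0 with 2.13 FPKM in WT compared with 3.81 FPKM in mutant cells. By d4 the median had dropped to 2.84 FPKM in WT compared with 3.4 FPKM in mutant cells, and 8 genes in each genotype were under 1 FPKM. The FPKM of the days can be set side by side, because the library size after TMM normalization divided by the FPKM divisor lay between 0.982 and 1.003 over the 12 libraries. In bulk RNA, fewer cycling cells and less RNA per cycling cell cannot be told apart.

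**Figure D1:**
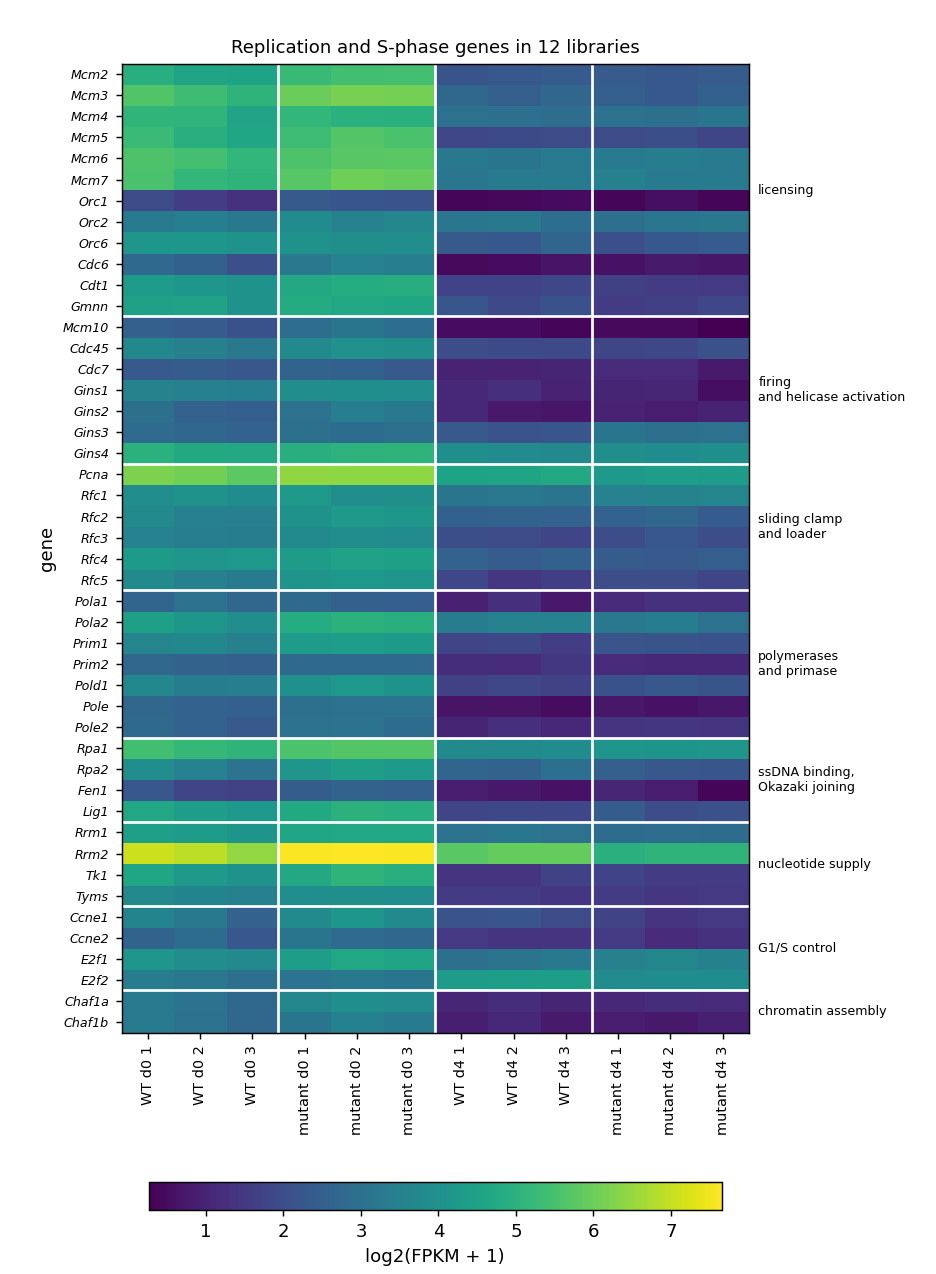
Heatmap of log2(FPKM + 1) for the 46 genes (y axis, by role) in the 12 libraries (x axis, 3 per genotype and day). Nearly all genes are brighter at d0 than at d4, E2f2 is brighter at d4, and Rrm2 is the brightest row in every group.

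The summed reads of the 46 genes show the same course per library. They took 3712, 3400 and 2863 CPM (counts scaled to each library's assigned reads) in the WT d0 libraries and 4510, 4644 and 4527 in the mutant d0 libraries, a ratio of means of 1.37 with no overlap. At d4 the sums were 971.8 to 1013 in WT and 984.6 to 1018 in mutant cells, and the groups overlapped. The 6 proliferation markers, which include the G2/M genes Ccnb1 and Cdk1, summed to 1141 to 1440 CPM in WT d0 and 1191 to 1405 in mutant d0, and these sums overlapped while single markers went both ways. At d0 Birc5 (log2 fold change 0.51, adjusted p = 0.00196), Cdk1 (0.49, adjusted p = 0.00195) and Aurkb (0.33, adjusted p = 0.0188) were higher in mutant cells, Mki67 was lower (-0.45, adjusted p = 0.0346), and Top2a (0.03) and Ccnb1 (-0.03) did not pass edgeR's test. The 9 differentiated muscle markers summed to 149.3 to 206.9 CPM in WT d0 against 14.8 to 18.21 in mutant d0, and to 12570 to 12890 against 1887 to 2007 at d4. All 8 muscle markers tested at d0 and all 9 tested at d4 were lower in mutant cells (edgeR at d0, limma at d4), and their part in the replication gene differences was not tested.

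**Figure D2:**
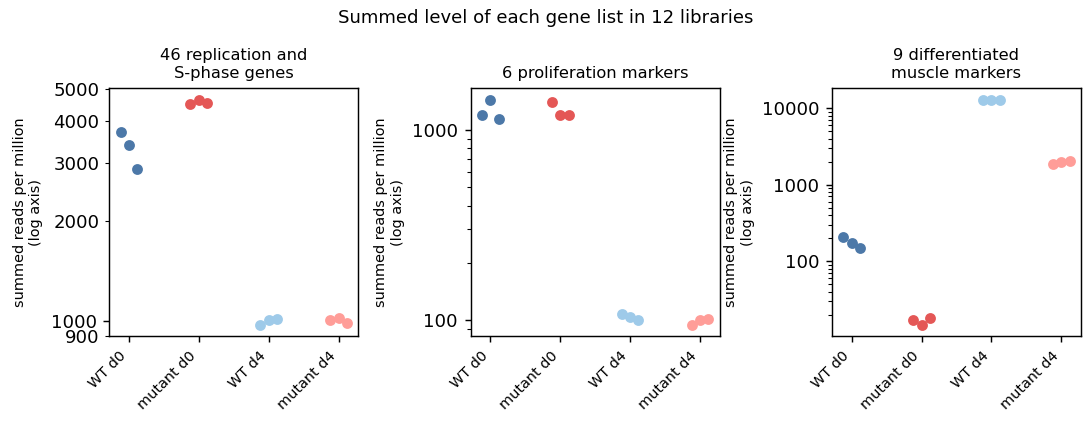
Summed CPM (log axis) of the 46 replication and S-phase genes, 6 proliferation markers and 9 differentiated muscle markers, 1 point per library. At d0 the mutant libraries lie above the WT libraries for the replication genes, overlap them for the summed proliferation markers, of which 3 were higher and 1 lower in mutant cells, and lie below them for the muscle markers.

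Libraries differed in ways that touch these genes. WT d0 replicate 3 was the lowest of its group for 43 of the 46 genes and WT d0 replicate 1 the highest for 37, and the median coefficient of variation was 16.5% in WT d0 against 7.97% in mutant d0. Mutant d0 replicate 3 had 172.4 CPM from 61 histone genes, against 47.75 and 56.76 in the other mutant d0 libraries and 59.85 to 77.66 in WT d0. Its 7SK RNA (Rn7sk) took 219.9 CPM, against 0.701 to 7.68 in the other d0 libraries. Histone sums at d4 were 381.6 to 388.9 in WT and 207.3 to 229.8 in mutant cells. Of 7 pluripotent (P19) markers, those found in the tables summed to at most 0.85 CPM in any library. The 8 fibroblast and smooth muscle markers summed to 718.7 to 802.6 CPM in WT d0 and 57.48 to 60.8 in mutant d0, and 6 of the 7 tested were lower in mutant cells. At d4 their sum was 1077 to 1107 CPM in WT and 1187 to 1226 in mutant cells, higher without overlap, although of the 5 tested with limma 3 were lower and 1 was higher at an adjusted p under 0.05. The 5 myoblast markers summed to 1554 to 1826 CPM in WT d0 and 1690 to 2104 in mutant d0, and these sums overlapped. By edgeR at d0, 1 of the 5 was lower in mutant cells past both thresholds (log2 fold change -8.77) and none was higher. Whether these marker differences or the uneven histone and 7SK RNA bear on the replication genes was not tested.

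The comparison of genotypes at d0 asks how mutant cells differ from WT cells before differentiation. Replication genes were modestly higher in mutant cells across all 8 roles. With edgeR's quasi-likelihood test, 32 of the 46 genes were higher at an adjusted p under 0.05, against 20.4% of all 13920 genes tested, and none was lower, against 23.9%. At an unadjusted p under 0.05, 35 of the 46 were higher and none was lower, against 52.1% of all genes in either direction. The median log2 fold change was 0.44 over the 46 genes and -0.02 over all genes. FPKM of the mutant libraries lay above all WT libraries for 37 genes, against 26.6% of 13017 genes. Only Cdc6 also passed an absolute log2 fold change above 1, so that 1 of 46 met both thresholds, against 3.03% of all genes.

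Cdc6, the ATPase that loads the MCM helicase with ORC, had 5.845, 4.863 and 3.174 FPKM in the WT d0 libraries and 8.41, 10.6 and 9.732 FPKM in the mutant d0 libraries. The mutant libraries all exceeded the WT libraries, and the log2 fold change was 1.03 (SE 0.18, adjusted p = 0.000847). Without WT d0 replicate 3 it was 0.82, and without mutant d0 replicate 2 it was 0.96, both under the fold threshold. The count at adjusted p alone ranged from 26 without WT d0 replicate 3 to 36 without WT d0 replicate 1, and was 27 without mutant d0 replicate 3, the library rich in histone and 7SK RNA. Leaving out WT d0 replicate 1 raised the count past both thresholds to 5, including Ccne1 at 1.05.

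By role, 8 of the 12 licensing genes were higher in mutant cells at d0. Mcm3, a helicase subunit, had 49.38, 39.72 and 32.74 FPKM in WT compared with 61.56, 69.2 and 68.12 FPKM in mutant cells, without overlap (log2 fold change 0.69, SE 0.13, adjusted p = 0.0013). Mcm7, its partner in the hexamer, had 45.47, 34.85 and 32.55 against 52.85, 63.9 and 60.48 FPKM (log2 fold change 0.63, adjusted p = 0.00176). Of the other subunits, Mcm4 at 0.08 (adjusted p = 0.672) and Mcm6 at 0.28 (adjusted p = 0.0608) did not pass the test. Orc1 was higher by 0.82 on the log2 scale, whereas Orc6 gave -0.18 and did not pass the test (adjusted p = 0.154).

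Among the firing factors, 4 of 7 were higher. Cdc45, which joins MCM and GINS in the active helicase, had 12.23, 10.2 and 8.29 FPKM in WT compared with 12.61, 15 and 14.3 FPKM in mutant cells (log2 fold change 0.43, adjusted p = 0.0231). Mcm10, which helps to activate that helicase, had 4.793, 4.3 and 3.335 against 6.518, 7.745 and 6.691 FPKM (log2 fold change 0.73, adjusted p = 0.00105). Both genes kept all mutant libraries above the WT libraries. Gins4, a GINS subunit, had 30.44, 26.04 and 25.6 FPKM in WT compared with 29.64, 31.85 and 32.3 FPKM in mutant cells, and the overlapping groups gave 0.17 (adjusted p = 0.194).

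At the fork, 4 of 6 clamp and loader genes, 5 of 7 polymerase and primase genes and all 4 genes of single-strand binding and Okazaki joining were higher. Pcna, the clamp that tethers polymerases, had 71.8, 67.32 and 54.91 FPKM in WT compared with 84.86, 83.08 and 84.02 FPKM in mutant cells (log2 fold change 0.35, adjusted p = 0.0159). Rfc1, the large loader subunit, overlapped with 13.87, 15.51 and 13.6 against 17.84, 14.02 and 14.34 FPKM (log2 fold change 0.08, adjusted p = 0.593). Pcna has a pseudogene copy, Pcna-ps2, which was assigned 731 to 920 reads in the d0 libraries against 2938 to 3792 for Pcna, so that their reads may be split.

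Prim1, the catalytic primase subunit, had 11.45, 12.06 and 10.07 FPKM in WT compared with 19.47, 20.01 and 18.77 FPKM in mutant cells (log2 fold change 0.77, SE 0.10, adjusted p = 8.19e-05). Pola2, a subunit of polymerase alpha, had 20.88, 17.1 and 13.87 against 27.43, 31.18 and 29.22 FPKM (log2 fold change 0.74, adjusted p = 0.000849). In contrast Pola1, the catalytic subunit of the same enzyme, gave -0.24 and did not pass the test (adjusted p = 0.199). The FPKM ratio of Pola2 to Pola1 within a library was 2.4 to 3.93 in WT d0 and 4.48 to 6.61 in mutant d0.

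Rpa1, the large subunit of the single-strand binding protein, had 41.79, 35.08 and 32.58 FPKM in WT compared with 46.47, 50.72 and 50.06 FPKM in mutant cells (log2 fold change 0.41, adjusted p = 0.00727). Rpa2, its middle subunit, had 13.85, 10.62 and 7.508 against 16.2, 19.68 and 18.18 FPKM (log2 fold change 0.74, adjusted p = 0.00558). Lig1, the ligase that seals Okazaki fragments, had 24.61, 19.83 and 17.5 against 26.08, 31.47 and 29.15 FPKM (log2 fold change 0.46, adjusted p = 0.00974). No WT library reached a mutant library in any of the 3 genes.

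All 4 genes of nucleotide supply were higher in mutant cells at d0. Rrm2 had 134.5, 120.9 and 87.73 FPKM in WT compared with 194.8, 201.1 and 194.4 FPKM in mutant cells (log2 fold change 0.76, SE 0.13, adjusted p = 0.000856). Rrm1, the large subunit of the same reductase, had 20.54, 18.92 and 16.06 against 23.29, 24.51 and 24.89 FPKM (log2 fold change 0.37, adjusted p = 0.0118). Mutant libraries lay above WT libraries for both genes. Rrm2 was 5.46 to 6.55 times Rrm1 in WT and 7.81 to 8.36 times Rrm1 in mutant cells.

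Of the 4 G1/S regulators, E2f1 and Ccne1 were higher. E2f1, an activator of the S-phase program, had 16.59, 13.79 and 12.63 FPKM in WT compared with 19.93, 24.77 and 22.69 FPKM in mutant cells (log2 fold change 0.63, adjusted p = 0.00136). Ccne1, the cyclin E1 that drives entry into S phase, had 11.08, 8.546 and 5.055 against 12.68, 16.67 and 12.87 FPKM (log2 fold change 0.76, adjusted p = 0.0165). Its WT d0 libraries had a coefficient of variation of 36.8%, the highest of the 46 genes in that group. E2f2, a relative of E2f1, had 9.583, 8.395 and 6.918 against 7.393, 8.39 and 7.83 FPKM, and the groups overlapped (log2 fold change -0.10, adjusted p = 0.538).

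Chaf1a, the large subunit of the CAF-1 histone chaperone that packs newly made DNA, had 8.976, 7.466 and 5.583 FPKM in WT compared with 11.64, 14.27 and 13.26 FPKM in mutant cells (log2 fold change 0.81, adjusted p = 0.00107). Chaf1b, its partner, overlapped with 9.028, 7.227 and 5.462 against 7.746, 10.51 and 8.891 FPKM (log2 fold change 0.30, adjusted p = 0.164). How strand was used in counting is not stated in these sources, and 52.5% of the exon bases of Chaf1a overlap Ubxn6 on the opposite strand. The same holds for 84.2% of Fen1 and 67.3% of Gins2, and 10 of the 46 genes share over 10% of their exon bases with another gene, so that their reads are uncertain.

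**Figure D3:**
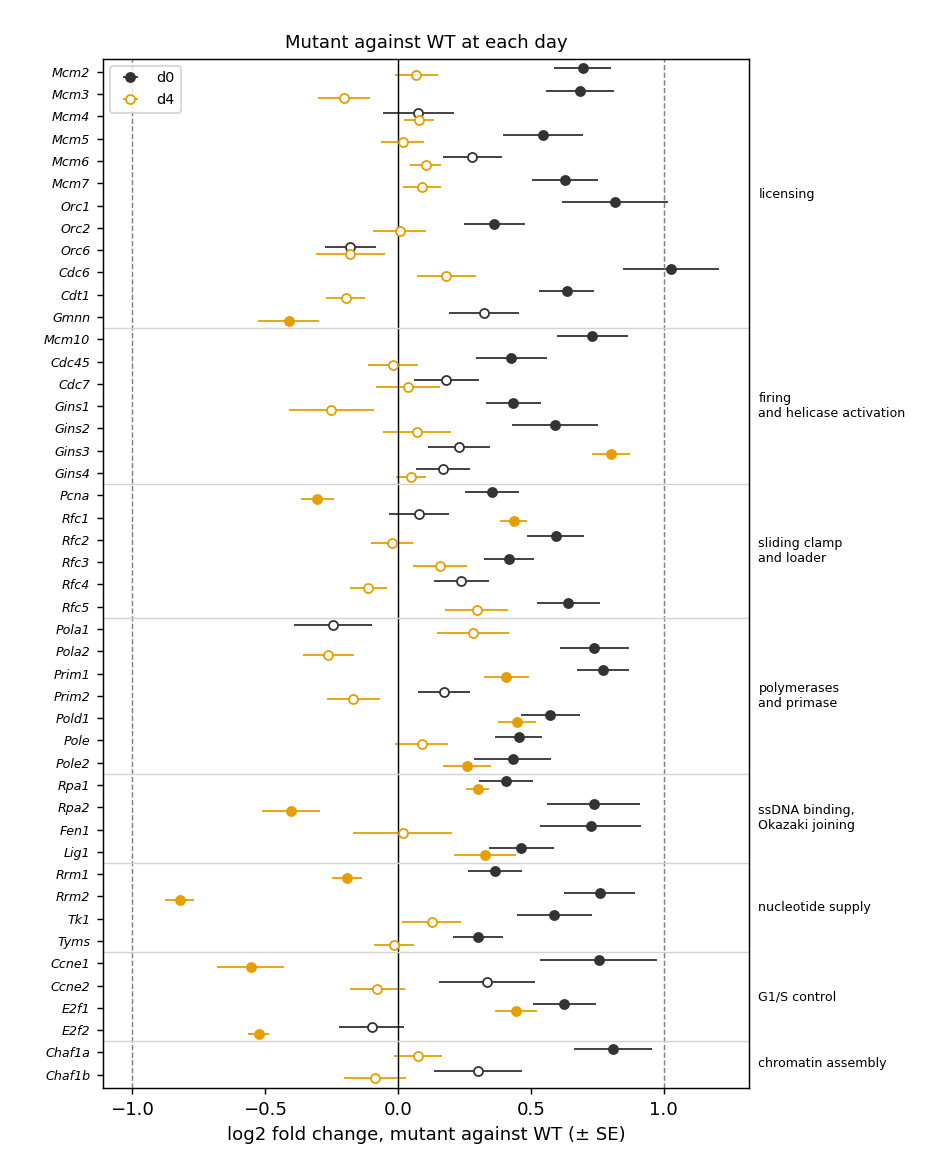
Log2 fold change of mutant against WT (x axis, ± SE) for the 46 genes (y axis, by role) at d0 (dark, edgeR) and d4 (orange, limma on log2(FPKM + 1)). Filled points have an adjusted p under 0.05 and dashed lines mark the fold threshold. At d0, 32 points are filled and lie to the right of 0, and at d4 8 lie to the right and 7 to the left.

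From d0 to d4 in WT cells most of the replication program fell. With edgeR on reads, 37 of the 46 genes fell past both thresholds, against 13% of 14336 genes tested, and 1 rose, against 12.6%. The median log2 fold change was -2.02 over the 46 genes and -0.03 over all genes. The median gene kept 23.4% of its d0 FPKM, and all WT d4 libraries lay below all WT d0 libraries for 45 genes, against 39.5% of 13403 genes. Mcm3 fell to 5.695, 4.644 and 5.515 FPKM (log2 fold change -2.88, SE 0.13, adjusted p = 1.66e-11), Mcm7 to 8.026, 8.884 and 9.208 FPKM (-2.05), and Pcna to 22.38, 23.02 and 25.71 FPKM (-1.38). Licensing genes had the lowest role median after the chromatin assembly pair, -2.56 against -2.77. Cdc6 was left with 0.3597, 0.4129 and 0.5688 FPKM, and Mcm10 with 0.4143, 0.421 and 0.3044 FPKM.

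Not all genes followed. E2f2 rose in WT cells to 19.22, 19.59 and 20.31 FPKM, above every d0 library (log2 fold change 1.31, SE 0.10, adjusted p = 1.64e-08). Orc2, an origin recognition subunit, changed by -0.17 and did not pass the test (adjusted p = 0.202), with 29.8% of its exon bases shared with Nif3l1. Another 7 genes fell at an adjusted p under 0.05 with less than the fold threshold, and they were Gins3 (-0.53), Pola2 (-0.70), Rfc1 (-0.80), Rpa2 (-0.83), E2f1 (-0.83), Rrm2 (-0.94) and Gins4 (-0.95). Rrm2 thus stood at 53.43, 58.84 and 59.01 FPKM in the WT d4 libraries and remained the most abundant of the 46 transcripts. Without WT d0 replicate 1, Ccne1 (-0.96) and Rfc2 (-0.93) fell short of the fold threshold.

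In mutant cells most of the program also fell from d0 to d4. With edgeR, 41 of the 46 genes fell past both thresholds, against 17.1% of 13755 genes tested, and none rose past both, against 17.3%. The median log2 fold change was -2.34 over the 46 genes and -0.01 over all genes. The median gene kept 19% of its d0 FPKM, and d4 libraries lay below d0 libraries for 44 genes, against 42.6% of 13071 genes. Mcm3 ended at 4.638, 3.874 and 4.869 FPKM (log2 fold change -3.84), Mcm7 at 10.17, 9.061 and 8.775 FPKM (-2.60), and Mcm10 at 0.3599, 0.354 and 0.1966 FPKM (-4.43), the steepest fall of the 46. The 5 genes outside the count were E2f1 (-0.99), Orc2 (-0.56), Rfc1 (-0.43), Gins3 (0.16, adjusted p = 0.165) and E2f2 (0.83). E2f2 was at 13.24, 13.55 and 13.38 FPKM in mutant d4, above its d0 libraries, and its increase passed the test at adjusted p alone.

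**Figure D4:**
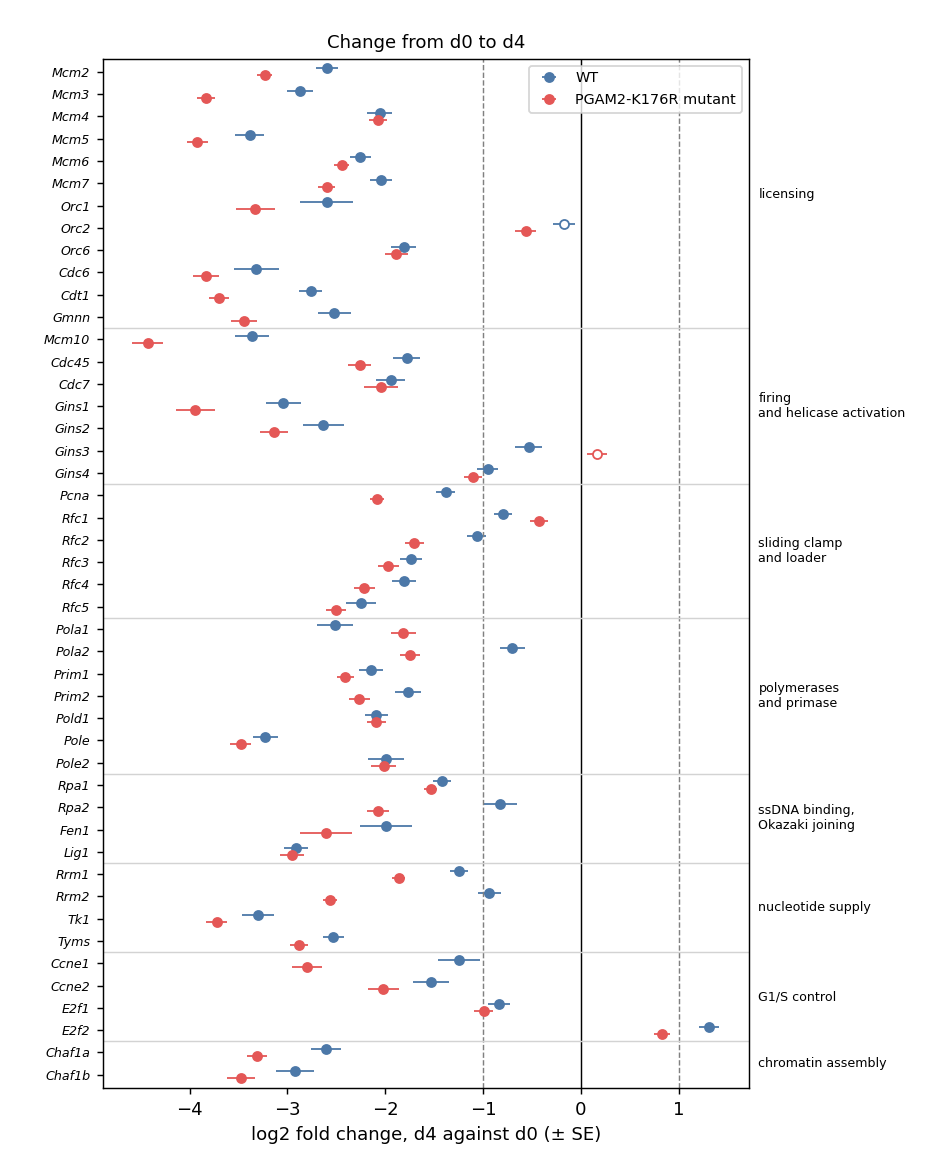
Log2 fold change from d0 to d4 (x axis, ± SE) in WT (blue) and mutant (red) cells for the 46 genes (y axis, by role), from edgeR. Filled points have an adjusted p under 0.05 and dashed lines mark the fold threshold. E2f2 alone lies to the right of 0 in both genotypes, and Rrm2, Rpa2, Pola2 and Ccne1 are among the genes whose red and blue points lie furthest apart.

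At d4 the comparison of genotypes asks which differences remain after differentiation. None of the 44 genes tested with limma on log2(FPKM + 1) passed both thresholds in either direction, against 1.76% of 13252 genes higher and 5.98% lower. Without the fold threshold 8 were higher in mutant cells, against 26.4% of all genes, and 7 were lower, against 29.3%. The median log2 fold change was 0.03 over the 44 genes and 0.00 over all genes. At an unadjusted p under 0.05 limma gave 18 of 44 genes against 60.8% of all genes, edgeR on reads 19 of 46 against 62.7%, and DESeq2 on reads 17 of 46 against 35.3% of 24787 genes with no filter on low values, and neither of the latter called any of the 46 past both thresholds. Orc1 and Mcm10 were below the filter of 0.5 FPKM in 3 libraries.

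Of the ribonucleotide reductase subunits, Rrm2 and Rrm1 were lower in mutant cells at d4. Rrm2 was lower, with 53.43, 58.84 and 59.01 FPKM in WT compared with 30.2, 32.93 and 32.42 FPKM in mutant cells (log2 fold change -0.82, SE 0.05, adjusted p = 1.35e-05). Rrm1 was lower by less, with 7.145, 8.01 and 7.189 against 6.307, 6.521 and 6.328 FPKM (-0.19, adjusted p = 0.0232). Rrm2 and Rrm1 each showed no overlap. The ratio of Rrm2 to Rrm1 was 7.35 to 8.21 in WT and 4.79 to 5.12 in mutant cells, the reverse of its order at d0.

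Rpa2 was lower in mutant d4, with 5.359, 5.135 and 6.745 FPKM in WT compared with 4.658, 3.855 and 3.759 FPKM in mutant cells (-0.40, adjusted p = 0.0165). Rpa1 was higher, with 12.72, 12.79 and 13.58 against 16.45, 15.97 and 16.39 FPKM (0.30, adjusted p = 0.000762). These subunits of the same complex differed in opposite directions, each without overlap between the groups. Lig1, with 2.522, 2.674 and 2.639 against 4.459, 2.995 and 3.274 FPKM, was higher (0.33, adjusted p = 0.0475).

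Pcna was lower, with 18.02, 19.69 and 19.28 FPKM in the mutant d4 libraries against 22.38 to 25.71 in WT (-0.30, adjusted p = 0.00445), whereas Rfc1 was higher, with 7.705, 8.341 and 7.62 FPKM in WT and 10.72, 10.9 and 11.42 in mutant cells (0.44, adjusted p = 0.000321). Prim1 was higher with 2.499, 2.671 and 2.045 against 3.63, 3.543 and 3.347 FPKM (0.41, adjusted p = 0.0053). Pola2, with 9.241, 10.56 and 10.71 against 8.365, 9.432 and 7.225 FPKM, overlapped (-0.26, adjusted p = 0.0515). Pold1 (0.45), the catalytic subunit of polymerase delta, and Pole2 (0.26), a subunit of polymerase epsilon, were also higher.

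The E2F pair split as well. E2f1 was higher in mutant d4, with 7.007, 7.546 and 8.507 FPKM in WT compared with 10.2, 11.68 and 10.51 FPKM in mutant cells (0.44, adjusted p = 0.00238). E2f2 was lower, from 19.22 to 20.31 FPKM in WT to 13.24 to 13.55 FPKM in mutant cells (-0.52, adjusted p = 2.78e-05). The ratio of E2f2 to E2f1 was 2.39 to 2.74 in WT d4 and 1.16 to 1.3 in mutant d4, and the groups did not overlap. Ccne1 was lower, with 3.415, 3.63 and 2.829 against 2.433, 1.578 and 1.795 FPKM (-0.55, adjusted p = 0.00767), and so was Gmnn, which encodes geminin (-0.41, adjusted p = 0.019).

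Gins3, a GINS subunit, had the largest positive value of the 44 genes tested at d4, with group means of 3.728 ± 0.289 FPKM in WT compared with 7.236 ± 0.487 FPKM in mutant cells (SD, n = 3; log2 fold change 0.80, SE 0.07, adjusted p = 7e-05). Its WT libraries had 4.011, 3.434 and 3.738 FPKM and its mutant libraries 7.792, 6.882 and 7.034 FPKM. On reads, where no pseudocount compresses low levels, edgeR gave 0.96 (adjusted p = 3.86e-08), still under the fold threshold. Several licensing and firing genes described at d0 did not pass the test at d4, among them Mcm3 (-0.20), Mcm7 (0.09), Cdc6 (0.18, with 0.5389, 0.7502 and 0.6363 FPKM in mutant cells), Cdc45 (-0.02, with 3.055, 2.771 and 2.707 against 2.51, 2.619 and 3.296 FPKM) and Gins4 (0.05, with 14.52, 13.22 and 12.81 against 14.03, 13.48 and 14.48 FPKM). Chaf1a had 1.074, 1.324 and 1.043 against 1.172, 1.334 and 1.271 FPKM (0.08), and Chaf1b 0.8259, 1.164 and 0.7165 against 0.7709, 0.6901 and 0.8917 FPKM (-0.09), and neither passed the test.

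The interaction of genotype and day asks whether the d0 to d4 change differed between genotypes, as the mutant log2 fold change minus that of WT cells. It is also the genotype difference at d4 minus that at d0, so it is not separate from those comparisons. Their medians over the genes tested were 0.44 at d0 (edgeR) and 0.03 at d4 (limma). The interaction was negative for 43 of the 46 genes, with a median of -0.50 against 0.01 over all 15114 genes tested. Its median was -0.67 for the 6 proliferation markers and -0.31 for the 75 genes of the 3 lists outside the 46. Of the 6 markers, 4 were negative and none positive at an adjusted p under 0.05 by edgeR. By edgeR, 22 of the 46 genes were negative at an adjusted p under 0.05, against 23.3% of all genes. Another 3 were positive, against 21.9%. Past both thresholds the interaction was negative for 5 of the 46 genes, against 7.95% of all genes, and positive for none, against 8.68%. The 5 genes fell more in mutant cells, but their number was near the share of all genes. The 5 were Rrm2 (-1.64, SE 0.15, adjusted p = 5.74e-08), Ccne1 (-1.56, SE 0.31, adjusted p = 0.000432), Rpa2 (-1.26, SE 0.24, adjusted p = 0.000239), Mcm10 (-1.08, SE 0.27, adjusted p = 0.00289) and Pola2 (-1.06, SE 0.18, adjusted p = 7.03e-05). The count was 3 without WT d0 replicate 3 and 9 without WT d0 replicate 1, and Mcm10 and Pola2 were under the fold threshold without WT d0 replicate 3 or without mutant d4 replicate 3.

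Rrm2 kept 49.9% of its d0 FPKM in WT cells and 16.2% in mutant cells. Ccne1 kept 40% against 13.8%, Rpa2 53.9% against 22.7%, and Pola2 58.9% against 28.5%. These 4 genes were above the WT libraries in every mutant d0 library, and at d4 each had a lower mean in mutant cells. Gins3 (0.69, adjusted p = 0.002), Pola1 (0.68, adjusted p = 0.0326) and Rfc1 (0.36, adjusted p = 0.0332) went the other way, and Gins3 kept 66% of its d0 FPKM in WT cells and 107% in mutant cells. The reads behind these values are fewest at d4, where the lowest counts of any of the 46 genes in a library were 20 in WT (Orc1) and 11 in mutant cells (Gins1).

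**Figure D5:**
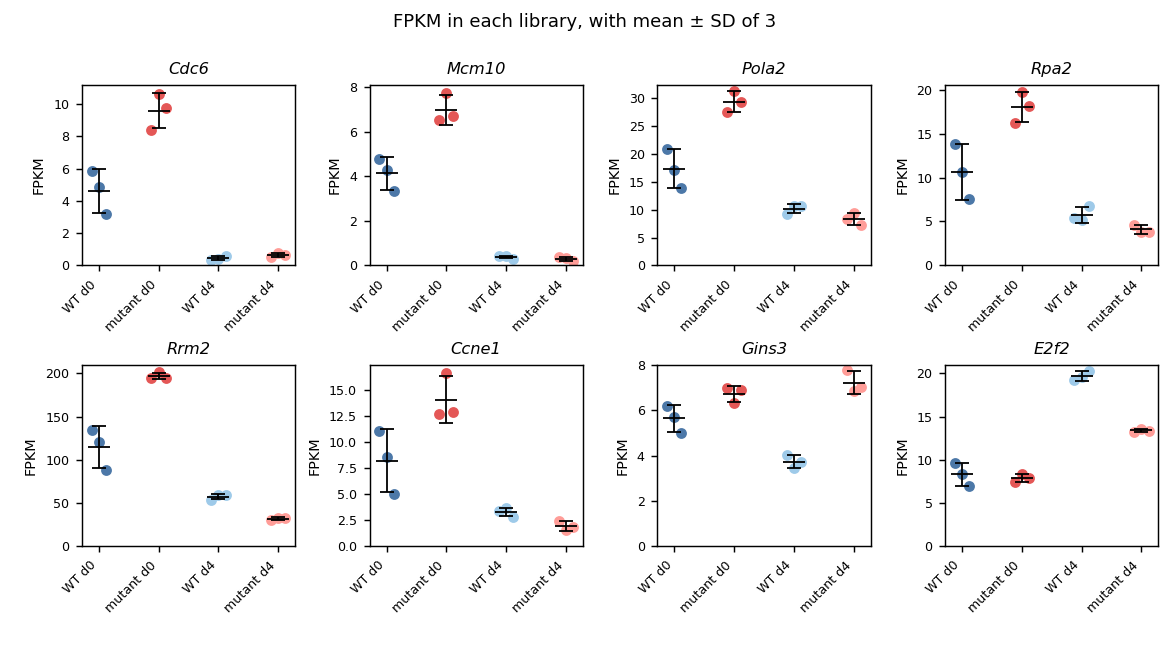
FPKM (y axis, from 0) of 8 genes in each library, with the mean ± SD of 3 in black, in WT d0, mutant d0, WT d4 and mutant d4 (x axis). Cdc6, Mcm10, Pola2, Rpa2, Rrm2 and Ccne1 are highest in mutant d0, Gins3 is lowest in WT d4, and E2f2 is highest in WT d4.

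Other genes of the pathway, from 3 lists of 75 genes outside the 46, give the surrounding values. Of 35 other replication factors, 22 fell and 1 rose past both thresholds from d0 to d4 in WT cells, against 13% and 12.6% of all genes, and 23 fell in mutant cells, against 17.1%. At d0 16 of the 35 were higher in mutant cells at adjusted p alone, against 20.4%, and none was lower. Uhrf1, which recruits the maintenance DNA methyltransferase to replicated DNA, fell by 3.16 on the log2 scale in WT and fell by 4.25 in mutant cells. Of 15 other genes of nucleotide supply, 10 fell past both thresholds in WT cells, against 13% of all genes. In mutant cells 12 of them fell, against 17.1%, and 1, Rrm2b, rose, against 17.3%. At d0 11 of the 15 were higher in mutant cells at adjusted p alone, against 20.4%, and none was lower, against 23.9%. Nme1, a nucleoside diphosphate kinase, went from 13.45 to 6.368 FPKM in WT and from 20.23 to 3.658 FPKM in mutant cells (group means).

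Of 25 other G1/S regulators, 4 rose and 9 fell past both thresholds in WT cells, against 12.6% and 13% of all genes. In mutant cells 4 of the 24 tested rose and 13 fell, against 17.3% and 17.1%. At d0 11 of the 25 were higher in mutant cells and 6 lower at adjusted p alone, against 20.4% and 23.9%. Cdkn1a, the p21 inhibitor of cyclin-dependent kinases, had 74.48, 60.6 and 62.68 FPKM in WT d0 and 80.98, 95.01 and 94.9 FPKM in mutant d0. At d4 it had 490.2, 513.2 and 539.1 FPKM in WT compared with 184.9, 185.3 and 186.1 FPKM in mutant cells. It therefore rose in both genotypes, by 3.03 in WT and by 1.10 in mutant cells on the log2 scale, and was lower in mutant cells at d4 (limma log2 fold change -1.47, adjusted p = 1.92e-07). Cdkn1c, the p57 inhibitor, was under 4 FPKM in every library and was lower in mutant cells on both days. By edgeR on reads its log2 fold change was -2.80 at d0 and -5.36 at d4, where limma on log2(FPKM + 1), which compresses low levels, gave -1.97.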

How the data were processed

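The 12 RNA-seq libraries, 3 for each genotype and day, were grouped by their labels. Per the study's methods, poly(A) RNA was sequenced as paired ends, and mm10 and DESeq2 1.20.0 are named in the submitters' processing notes. Aligner, counting tool and strandedness were not given in the sources used here. Raw counts per gene, not normalized, were deposited by the authors for WT d0, mutant d0 and mutant d4, and FPKM was deposited by the authors for all libraries. Left unused were 3 count columns of the WT d4 table, which are named for mutant d4. Authors' columns of comparisons were not used either. WT d4 reads were worked back from FPKM and gene length, and came out whole within 0.01 reads for all values.

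edgeR 4.0.16 (quasi-likelihood, TMM normalization) was run on counts at d0 and between days, and limma 3.58.1 (R 4.3.3) on log2(FPKM + 1) at d4, for genes with at least 0.5 FPKM in 3 libraries. This scale understates changes of low genes. The plan had assumed counts for all libraries, and reads entered the d4 comparison only as an alternative. Between days, only genes listed at both days were used. A gene was called when its adjusted p (Benjamini-Hochberg, over all genes tested) was under 0.05 and its log2 fold change exceeded 1 in size. The scripts were tested on simulated data.

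Described in full were, in each role, the 2 genes with the highest mean FPKM over 12 libraries and the gene with the largest interaction, and any gene called between genotypes. Gins3, the other genes of small counts and Rrm2b were added after their values were seen. For lists outside the 46, up to 3 called genes of the largest change could be named. The 46 genes and all lists were chosen with earlier results of these data known. Alternatives were RLE size factors, no filter on low values, DESeq2 1.42.0, other pseudocounts and fold thresholds, quantile normalization, 1 fit of all 12 libraries, a replicate block and leaving out each library. The intervals and tests cover these libraries only. Of the 46 genes, 9 had no promoter entry and are named only by their values.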

Additional observations from a re-analysis of the deposited data

Results flagged for a closer look

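These genes had a change from d0 to d4 that differed between mutant and WT cells by the edgeR interaction test at an adjusted p under 0.05, each given as the mutant minus the WT log2 fold change. Groups of 3 libraries were too small to be screened for single outlying libraries. Among licensing genes the values were -0.97 for Mcm3, -0.95 for Cdt1, -0.94 for Gmnn, -0.65 for Mcm2, -0.56 for Mcm7, -0.55 for Mcm5 and -0.41 for Orc2. Among firing factors they were -1.08 for Mcm10, -0.91 for Gins1, -0.49 for Cdc45 and 0.69 for Gins3. For the clamp and loader they were -0.71 for Pcna, -0.65 for Rfc2, -0.41 for Rfc4 and 0.36 for Rfc1, and for polymerases and primase -1.06 for Pola2, -0.51 for Prim2 and 0.68 for Pola1. Rpa2 had -1.26. For nucleotide supply they were -1.64 for Rrm2, -0.63 for Rrm1 and -0.37 for Tyms, and for G1/S control and chromatin assembly -1.56 for Ccne1, -0.50 for E2f2 and -0.71 for Chaf1a.

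Of the lists outside the 46 genes, the largest called values were -1.09 for Uhrf1, -1.02 for Mtbp, which acts in origin firing, -1.40 for Nme1, -1.01 for Gart, an enzyme of purine synthesis, -2.61 for Cdkn1c, -1.94 for Cdkn1a and -1.26 for E2f8, a repressor of the E2F family. The causes of these differences were not tested.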

How the results depend on the processing

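The counts of genes past both thresholds between days, 38 in WT and 41 in mutant cells, stayed within 1.5 times their size under every setting run. Between genotypes and in the interaction the fold threshold decided the count. At d0 it was 1 with it, 32 without it and 0 when fold changes were tested against 1. At d4 it was 0 with it and 15 without it. In the interaction it was 5 with it, 25 without it and 1 when tested against 1. Leaving out each library in turn gave 0 to 5 genes at d0, 0 at d4, 36 to 41 in WT, 41 to 42 in mutant cells and 3 to 9 in the interaction. At adjusted p alone, a count added after the data were seen, it gave 26 to 36 at d0, 11 to 15 at d4 and 18 to 31 in the interaction. Over all genes at d4, limma called 233 higher and 792 lower, edgeR on reads 721 and 1537, DESeq2 on reads 690 and 1760, and limma in all 1690 with a pseudocount of 0.1 and 439 with 5.

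Deviations of log2 CPM from the group means, over 11445 genes, were correlated between same-numbered libraries. The values were -0.54 to 0.09 at d0, -0.03 to 0.02 at d4, -0.19 to -0.02 in WT and -0.04 to 0.05 in mutant cells. These values gave no sign that the numbers pair the libraries, but with 3 libraries per group they cannot exclude it. Differently numbered d0 libraries ranged from -0.30 to 0.49, the highest being WT replicate 1 with mutant replicate 2. WT replicate 2 with mutant replicate 1 came next at 0.42. The d0 test does not model such links, and a block on replicate number does not cover them. With the replicate block the counts past both thresholds stayed at 1, 0, 38, 41 and 5, and those at adjusted p alone were 28 at d0, 14 at d4 and 22 in the interaction.

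Leaving out each library moved the median log2 fold change of the genes between 0.3955 and 0.6007 at d0 and between -0.615 and -0.3716 in the interaction, and WT d0 replicates 3 and 1 set both ends.

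Among the genes followed, signs turned only in 9 that lay near 0 and passed the test in no setting where they turned. Quantile normalization at d4 gave 0.0368 for Cdc45, 0.0248 for Rfc2 and 0.0636 for Tyms, and DESeq2 on reads gave -0.0004 for Orc2. With 1 library left out, values at d0 ran from -0.0336 to 0.1546 for Rfc1 and from -0.2119 to 0.0407 for E2f2. At d4 they ran from -0.1081 to 0.0376 for Cdc45, from -0.1574 to 0.0097 for Chaf1b, from -0.0279 to 0.0786 for Mcm5, from -0.0909 to 0.0487 for Rfc2, from -0.0531 to 0.0115 for Tyms and from -0.0874 to 0.0747 for Orc2. In the interaction they ran from -0.2371 to 0.0736 for Lig1. Depth limits the lowest genes at d4, where Gins1 had 11 reads in a mutant library. The causes of these shifts were not tested.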
